A study of Mus musculus with 14 samples.

Results

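The nuclei described here are the 1646 of 31324 brain nuclei that carried the label "glia" in the deposited annotation of a mouse single nucleus RNA-seq (snRNAseq) series. They were chosen by that label alone. The series held 109000 nuclei in all, of which 77676 came from retina libraries and were only counted. The transcripts in these nuclei went against the word glia: they held collagen and leptomeningeal genes. Their astrocyte and oligodendrocyte lists were far below those of nuclei labeled astrocytes and oligodendrocytes. They are therefore called "nuclei labeled glia" throughout.

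The series asked how retinal and brain vessels depend on TGF-beta signaling in endothelial cells (ECs). Vascular fragments from a pair of brains were pooled per genotype and their nuclei captured with the PIPseq v4.0 PLUS kit, giving 1 control library and 1 conditional knockout (CKO) library. The control library was labeled wild type, the study's controls being phenotypically normal and usually Cdh5CreER;Tgfbr1 CKO/+, and its labels name no treatment. The CKO library came from Cdh5CreER;Tgfbr1 CKO/- mice (VEcadCreER in the labels), with 4-hydroxytamoxifen given between postnatal days 3 and 5. Cdh5CreER drives recombination in ECs, whereas the null allele of the CKO mice is carried by every cell, so nuclei of other types also differ from the controls in Tgfbr1 genotype. The series text calls the mice young adults, whereas the study's account of the brain snRNAseq places them at the end of the second postnatal week. Strain was not given in the sources used here.

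Brain fibroblasts sit in the membranes that wrap the brain and along its larger vessels. Pial fibroblasts lie on the brain surface and lay down basement membrane, arachnoid cells form layers above them and, through cadherin junctions, a barrier to the dura, and dural fibroblasts fill the outermost sheet with fibrillar collagen. Leptomeningeal cells are known for solute carriers, retinoic acid synthesis and prostaglandin D synthase, and perivascular fibroblasts for collagens around arteries and veins.

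The control library held 1227 nuclei labeled glia among 16649 nuclei, 7.37% (exact Clopper-Pearson 95% interval 6.98 to 7.78%). The CKO library held 419 among 14675, 2.86% (2.59 to 3.14%). The share was thus lower in the CKO library, as were those of nuclei labeled vSMCs (vascular smooth muscle cells), 2.70% and 0.702%, pericytes, 1.21% and 0.150%, and microglia, 0.775% and 0.0750%. A label of glutamatergic neurons, Glut_5, was lower as well, at 11.2% and 1.71%. Other labels were higher as shares of the same totals, among them ECs, 14.9% and 20.1%, and the neurons of Glut_0, 12.7% and 21.1%. How vessels were enriched sets these shares as well, and that was not tested. The control nuclei held 1732742 unique molecular identifiers (UMIs, each a counted RNA molecule), with a median of 879 per nucleus and a range of 263 to 14051. The CKO nuclei held 499193 UMIs, with a median of 582 and a range of 258 to 12066, so the CKO nuclei were the shallower set. The libraries shared 2 barcodes, and 0 of them belonged to a nucleus labeled glia. With 1 library per genotype the differences below have no replicate check: they compare these 2 libraries, not the genotypes, and every interval is a 95% interval that covers counting error only.

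The label was checked against marker lists, with levels given as CPM, the UMIs of a gene per 1000000 UMIs, summed over a list. The label markers Col1a1, Col1a2, Dcn and Lum summed to 3413 CPM in control and 3762 CPM in CKO nuclei labeled glia. Over all other brain nuclei the same sum was 133 and 131 CPM. The leptomeningeal list reached 15632 and 13756 CPM, against 431 and 349 CPM in the other brain nuclei. The astrocyte list was set instead against the 1586 nuclei labeled astrocytes. It stood at 4118 and 3728 CPM in nuclei labeled glia and at 33813 and 35956 CPM in those. Its most abundant member was Slc4a4, a bicarbonate cotransporter that is also on the list of leptomeningeal transporters. Against all other brain nuclei, its 6 members with most UMIs did not all go the same way. In control, Slc4a4, Slc1a3 and Gja1 were 3.37-fold, 6.06-fold and 11.96-fold higher in nuclei labeled glia. Gpc5, Slc1a2 and Aqp4 were lower there, at 0.704, 0.332 and 0.432 of the level in the other nuclei. The oligodendrocyte list summed to 619 and 841 CPM, against 29010 and 32093 CPM in nuclei labeled oligodendrocytes, and its most abundant member was Cldn11, a claudin that the arachnoid barrier list holds too. By these lists the nuclei were fibroblast and meningeal in content, with collagen genes also present in other labels: the 4 label markers summed to 1448 and 2984 CPM in the 552 nuclei labeled vSMCs.

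**Figure D1:**
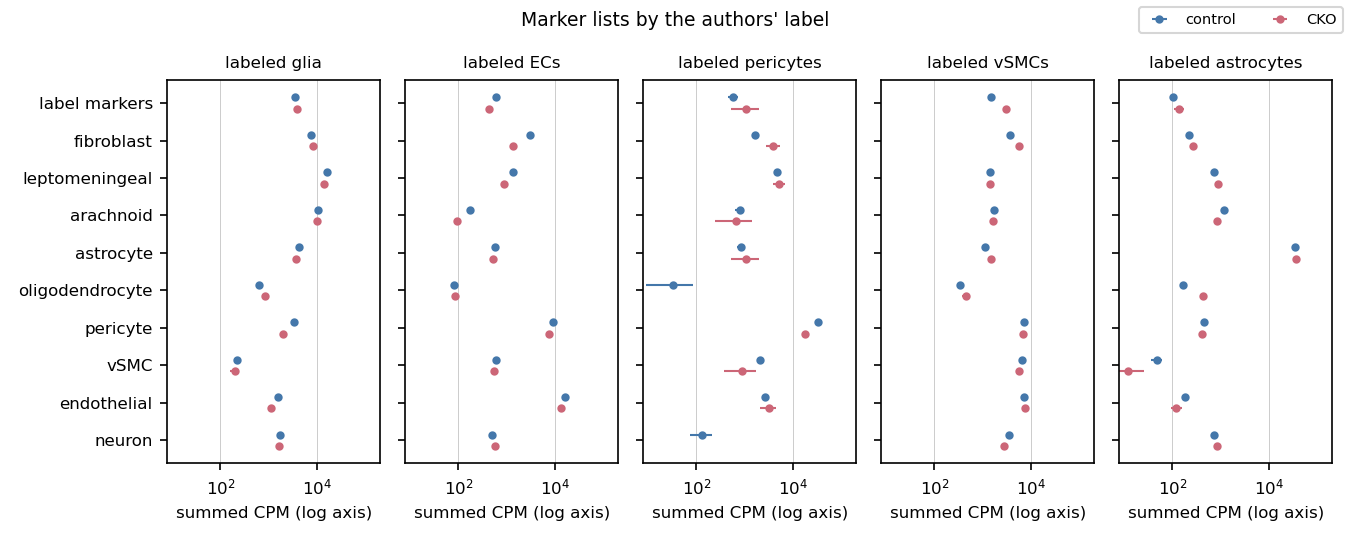
Summed levels of marker lists (CPM, log axis) in nuclei of 5 labels, for the control library (blue) and the CKO library (red), with exact Poisson 95% intervals that cover counting error only. Lists with 0 UMIs are not drawn. Nuclei labeled glia lead in the leptomeningeal list, at 15632 CPM in control and 13756 CPM in CKO, and nuclei labeled astrocytes in the astrocyte list.

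At least 1 of the 4 label markers was detected in 1035 control nuclei (84.4%) and 325 CKO nuclei (77.6%). After every nucleus was thinned to 250 UMIs, which left out 0 nuclei, the shares were 50.5% and 56.1%. In excitatory neurons of the largest glutamatergic label, with median depths of 5004 and 2314 UMIs, the thinned share was 0% in both libraries. Label-marker UMIs in the nuclei labeled glia were therefore above the neuronal background in both libraries. They were not particular to this label: the thinned shares were 39.0% and 37.9% in nuclei labeled vSMCs (83.3% and 76.7% unthinned). In nuclei labeled ECs they were 7.07% and 7.03%. Leptomeningeal genes were detected in 1155 of the thinned control nuclei (94.1%) and 394 of the thinned CKO nuclei (99.6% and 99.5% of nuclei unthinned), against 2.51% and 2.32% of those neurons after thinning. The thinned shares were 34.3% and 30.1% in nuclei labeled vSMCs and 29.6% and 20.1% in ECs. Astrocyte genes were detected in 59.3% and 64.4% of thinned nuclei labeled glia, beside 99.7% and 99.5% of nuclei labeled astrocytes and 22.7% and 24.6% of those neurons.

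Col1a1 (chromosome 11, 94827050 to 94843868, GRCm39), which encodes the alpha 1 chain of type I collagen, had 2248 UMIs in control and 740 in CKO. Those counts are 1297 and 1482 CPM, a CKO to control ratio of 1.14 (1.05 to 1.24). Its partner chain Col1a2 (chromosome 6, 4504814 to 4541555) had 2776 and 850 UMIs, a ratio of 1.06 (0.983 to 1.15). Summed over all nuclei type I collagen was thus at nearly the same level in both libraries, while within 4 clusters Col1a1 ratios were 1.61 to 2.33, given below. Dcn (chromosome 10, 97315275 to 97358155), the collagen-binding proteoglycan decorin, had 828 and 277 UMIs and a ratio of 1.16 (1.01 to 1.33). The neighboring gene Lum (chromosome 10, 97400990 to 97408577), which encodes the related proteoglycan lumican, had 62 and 11 UMIs, and its ratio of 0.616 had an interval of 0.292 to 1.18. A difference in Lum was not detectable at this depth. Tgfbr1 (chromosome 4, 47353134 to 47414931), the receptor gene targeted in ECs, had 486 UMIs (280 CPM) and 134 UMIs (268 CPM) in these nuclei, a ratio of 0.957 (0.784 to 1.16). UMIs can fall outside the deleted part of the gene, so this level says nothing of recombination or of the null allele. Tgfbr2, the partner receptor, was lower in the CKO nuclei, at 348 and 75 UMIs and a ratio of 0.748 (0.575 to 0.963), while in nuclei labeled ECs it stood at 396 and 742 CPM.

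Of the 20 genes highest in these nuclei over all other brain nuclei, 18 were within 2-fold between the libraries. This is a description, because the label came from clustering on these genes. Prg4, which encodes the lubricant proteoglycan lubricin, was 627-fold higher than in other nuclei in control and 2043-fold higher in CKO. Msln, the mesothelial surface protein mesothelin, had 304 and 99 UMIs and a CKO to control ratio of 1.13 (0.892 to 1.42). Ptgds, the prostaglandin D synthase of the leptomeninges, was at 8920.5 CPM in control and 8824 CPM in CKO, a ratio of 0.989 (0.956 to 1.02). It was not level throughout: in the Col15a1 cluster described below it had 452 and 3 UMIs, a ratio of 0.133 (0.0272 to 0.390). Cdh1, the E-cadherin of arachnoid barrier junctions, was at 694 and 1084 CPM, 367-fold and 689-fold above other nuclei. Slc47a1, an organic cation exporter, was at 469 and 835 CPM, and the transcription factor Bnc2 at 3604 and 5078 CPM. Aldh1a2, which makes retinoic acid, was at 276 and 210 CPM, a ratio of 0.762 (0.611 to 0.944). The other 13 genes of these 20 were Tspan8, Gm5860, Car13, Igfbp6, Dapl1, Crabp2, Prdm6, Mpzl2, Slc6a12, Foxc2, Efemp1, Gm6260 and Ranbp3l. Of these, Car13, a carbonic anhydrase, was higher in CKO by a ratio of 2.24 (1.85 to 2.70), and Slc6a12, a betaine and GABA carrier, was lower at 0.492 (0.333 to 0.706).

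The nuclei labeled glia were not of 1 kind. Clustered without the genes that differed 2-fold or more between the libraries, they formed 10 groups, each called here by 1 of its leading genes. A marker counted as raised in a cluster when its level was at least 2-fold that of the other nuclei labeled glia and at least 5% of the cluster's nuclei held it. The Slc47a1 cluster had 5 of 10 dural and 4 of 15 leptomeningeal markers raised. The Col15a1 cluster had 10 of 15 fibroblast markers raised, with 6 of 10 perivascular fibroblast and 5 of 8 pial markers, among them Lama1, Lama2 and Col18a1. The Cftr cluster had 7 of 15 leptomeningeal and 5 of 10 arachnoid markers raised, including Ptgds and Aldh1a2. The Dpp4 cluster had 4 arachnoid barrier markers raised, Cdh1, Dpp4, Cldn11 and Klf5, and the Adh5 cluster 5 dural markers. The dural list is not particular to meninges: after thinning, 53.9% and 54.5% of neurons of the largest glutamatergic label held a member. The 5% rule was not adjusted for depth. The Adh5 cluster was the deepest of these 5, at a median of 1482 UMIs, beside 714.5, 611, 753 and 766 in the Slc47a1, Col15a1, Cftr and Dpp4 clusters. Other clusters led with markers of other classes. The Mapk10 cluster had 10 of 12 neuronal markers raised, the Myh11 cluster 10 of 12 endothelial and 8 of 12 vSMC markers, and the Slc1a2 cluster of 18 nuclei 9 of 12 astrocyte markers. Clusters with more raised markers of other classes than of the fibroblast and meningeal lists held 232 control nuclei (18.9%) and 78 CKO nuclei (18.6%). These shares depend on the clustering: with all genes at a resolution of 0.25 they were 27.1% and 35.6%.

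The clusters were filled unequally by the libraries. The Slc47a1 cluster held 215 control nuclei, 17.5% (15.4 to 19.8%), and 159 CKO nuclei, 37.9% (33.3 to 42.8%), and was where the largest share of CKO nuclei lay. The Col15a1 cluster held 304 control nuclei, 24.8% (22.4 to 27.3%), and 21 CKO nuclei, 5.01% (3.13 to 7.56%), and was the largest control cluster. The Adh5 cluster held 11.4% and 19.6%, and the Cftr cluster 18.0% and 12.4%. The Dpp4, Mapk10 and Myh11 clusters had closer shares, at 7.42% and 6.44%, 11.8% and 11.5%, and 5.46% and 5.01%. The Moxd1 cluster of 24 nuclei and the Top2a cluster of 11 nuclei held 0 CKO nuclei, which allows each a share of up to 0.877% by the exact interval. With 1 library per genotype, a cluster mostly of 1 library may be that library, not a type. When genes past 2-fold were kept in the clustering, the Col15a1 nuclei largely parted by library. Of them, 194 fell in a cluster of 206 control and 2 CKO nuclei, 106 in one of 106 and 1, and 21 in one of 71 and 36. Values within the Col15a1 cluster thus compare nuclei that mostly sat in different clusters in each library. The Slc47a1 cluster parted as well, as given below.

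**Figure D2:**
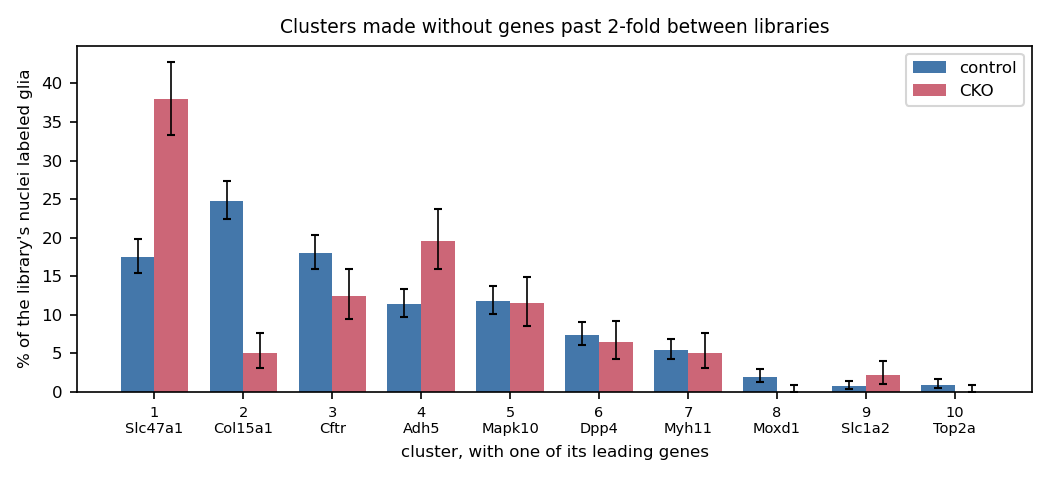
Share of each library's nuclei labeled glia (percent, bars from 0) in each of 10 clusters found without the genes past 2-fold, for control (blue) and CKO (red), with exact binomial 95% intervals that cover counting error only. The Slc47a1 cluster takes 17.5% of control and 37.9% of CKO nuclei, and the Col15a1 cluster 24.8% and 5.01%.

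UMIs were then summed over the nuclei labeled glia of each library, to ask which genes differed between them. Of 6480 genes with at least 50 UMIs over both libraries, 394 (6.08%) were at least 2-fold higher in the CKO library and 557 (8.60%) at least 2-fold lower. The median log2 ratio was 0.05. The counts depend on the processing: with the control UMIs thinned to the CKO total they were 258 and 232, and with nuclei weighted equally 959 and 1063. Thinning left fewer genes with enough UMIs, as given below, so its counts cannot be set against 394 and 557 without that total. When the 7 clusters with at least 20 nuclei of both libraries were given equal weight in each, 578 genes were higher and 752 lower. The shares of 6.08% and 8.60% are the background for each count of list members below.

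Immediate early genes, which are transcribed within minutes of a stimulus, were higher in the CKO library. Of 10 list members with enough UMIs, 7 were at least 2-fold higher, beside 6.08% of all genes, and 0 lower, with a median log2 ratio of 1.66, and the list summed to 435 CPM in control and 1474 CPM in CKO. The minimum of 50 UMIs is counted over both libraries. Nr4a1, Nr4a2 and Dusp1, the last at 23 and 34 UMIs, reached it mostly through their CKO UMIs. The filter thus in part sets this count and median. The orphan nuclear receptor gene Nr4a1 (chromosome 15, 101151980 to 101172681) had 4 UMIs in control and 46 in CKO, a ratio of 39.9 (14.6 to 153). Its relative Nr4a2 had 11 and 71 UMIs, a ratio of 22.4 (11.8 to 46.9). The antiproliferative gene Btg2 had 99 and 116 UMIs, or 57.1 and 232 CPM, and the transcription factor gene Klf4 126 and 108 UMIs, or 72.7 and 216 CPM. Jun, Klf2 and Dusp1, a MAP kinase phosphatase gene, were the other 3 members past 2-fold. In all other brain nuclei Nr4a1 stood at 24.2 CPM in control and 33.4 CPM in CKO, and Nr4a2 at 16.5 and 21.7 CPM. The Nr4a2 UMIs of the CKO library lay mostly in the Slc47a1 cluster, 48 of 71, where the control nuclei had 0. Its Nr4a1 UMIs lay mostly in the Adh5 cluster, 30 of 46, where the control nuclei had 1. The mitochondrial transcript mt-Co3, of a kind that can mark the quality of nuclei, had 1212 and 600 UMIs, a ratio of 1.72 (1.56 to 1.90). Within the Slc47a1 cluster it had 16 and 43, a ratio of 5.44 (3.00 to 10.3). That cluster largely parted by library when genes past 2-fold were kept in the clustering. Whether nucleus quality or handling differed between the libraries was not tested.

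Other genes of the 15 whose ratio intervals lay farthest above 1 follow. Slc16a9 (chromosome 10, 70080914 to 70121798), a monocarboxylate and carnitine carrier, had 193 UMIs in control and 240 in CKO, a ratio of 4.32 (3.56 to 5.24). In nuclei labeled ECs the same gene was lower in CKO, at 610 and 260 UMIs and a ratio of 0.361. Csrp2, which encodes a LIM domain protein, had 73 and 88 UMIs, a ratio of 4.18 (3.03 to 5.79), and was likewise lower in CKO ECs, at 2062 and 794 UMIs and a ratio of 0.326. Neither contrast between the labels was tested. Ccn1, a matricellular protein gene, had 13 and 37 UMIs, a ratio of 9.88 (5.13 to 20.3). The clock gene Per1 had 41 and 73 UMIs, and Hhip, whose product binds and dampens hedgehog ligands, 20 and 37. The remaining genes of the 15 were Olfr1033, Coq10b, Gm20400, Snx19, Ubr4 and Abi1, with ratios of 3.05 to 5.79.

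Nalcn, Kcnb2 and Robo2, which neurons also use, were among the 15 genes whose ratio intervals lay farthest below 1. Nalcn (chromosome 14, 123513998 to 123864915), the sodium leak channel, had 736 UMIs in control and 17 in CKO, a ratio of 0.0802 (0.0465 to 0.129). All 17 CKO UMIs lay in the Mapk10 cluster, the one with raised neuronal markers. In the Slc47a1, Cftr, Adh5 and Dpp4 clusters the control nuclei held 126, 161, 106 and 100 Nalcn UMIs and the CKO nuclei 0. The deposited counts had background RNA removed by CellBender, and whether that step made zeros in 1 library was not tested, since it needs the raw counts. Kcnb2, a voltage-gated potassium channel, had 1035 and 40 UMIs, a ratio of 0.134 (0.0953 to 0.184), and 39 of the 40 were in the Mapk10 cluster. Robo2, a receptor for Slit proteins, had 881 and 44 UMIs, a ratio of 0.173 (0.125 to 0.235), and 41 of the 44 were in that cluster. In control 543 of the Kcnb2 UMIs lay in the Slc47a1 cluster, 227 in the Mapk10 cluster and 198 in the Adh5 cluster, and Robo2 was led by the Cftr cluster with 251. For these 3 genes the CKO UMIs thus lay almost entirely in the Mapk10 cluster, whereas most control UMIs lay outside it. Over all other brain nuclei the levels were close in the 2 libraries, at 280 and 255 CPM for Nalcn, 732 and 753 CPM for Kcnb2, and 713 and 752 CPM for Robo2.

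The other genes of these 15, ranked by the upper limit of the ratio and not by the ratio, included 3 with 0 UMIs in CKO. Fndc1, which encodes a fibronectin domain protein, had 81 UMIs in control and was at least 7.78-fold lower, taking a floor of 3 UMIs over the CKO nuclei. The interval of its ratio, which also counts the error of the control UMIs, reached 0.162. On the same floor Gm10125, with 75 control UMIs, was at least 7.20-fold lower and Tmem132cos, with 58, at least 5.57-fold lower, with intervals that reached 0.175 and 0.228. The adrenergic receptor gene Adra1a had 253 and 7 UMIs, and the dynein chain gene Dync1i1 335 and 11. Kcnt1 and Kcnt2, both sodium-activated potassium channel genes, had 162 and 5, and 390 and 14. Gm17167, Gm30382, Tmem132c and Sycp1 completed the set after Xist. Tmem132cos lies inside Tmem132c on the opposite strand, and the sources used here do not say whether counting used strand, so the UMIs of this pair may not be separable.

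Basement membrane genes were often lower in the CKO nuclei. Of 21 members with enough UMIs, 9 were at least 2-fold lower, beside 8.60% of all genes, and 0 higher, with a median log2 ratio of -0.68. The list summed to 5922 CPM in control and 3378 CPM in CKO, a ratio of 0.570 (0.541 to 0.601). Lama1 (chromosome 17, 68004223 to 68129642), the laminin alpha 1 chain of pial basement membrane, had 1175 UMIs in control and 85 in CKO, a ratio of 0.251 (0.199 to 0.313). The type IV collagen chains Col4a1, Col4a2, Col4a5 and Col4a6, which form the network of basement membranes, had ratios of 0.440, 0.341, 0.378 and 0.270. Col15a1 and Col18a1, whose products link basement membrane to the matrix beside it, had ratios of 0.249 (0.150 to 0.392) and 0.262 (0.144 to 0.442). Lamc3 and Nid2 were the other members past 2-fold. The Col15a1 cluster, in which Lama1 and Col18a1 were raised, held a larger share of the control nuclei, and giving clusters equal weight in both libraries moved the list's median log2 ratio to -0.34. Within that cluster Lama1 stood at 764 and 26 UMIs, a ratio of 0.679 (0.441 to 1.00), and within the Cftr cluster at 136 and 22, a ratio of 1.05 (0.637 to 1.66). The first of these ratios compares nuclei that largely parted by library when genes past 2-fold were kept in the clustering. Within the Mapk10 cluster Lama1 was lower in CKO, at 153 and 6 UMIs and a ratio of 0.159 (0.0575 to 0.354). Its ratio thus differed from cluster to cluster. Vascular markers moved the same way: all 12 endothelial markers were detected in both libraries and summed to 1549 and 1104 CPM, with Abcb1a most abundant. Their part in the difference was not tested.

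Summed over all nuclei and over the list, the fibrillar collagens stood at 4506 CPM in control and 4651.5 CPM in CKO, a ratio of 1.03 (0.985 to 1.08). Of 7 fibrillar collagen genes with enough UMIs, 0 were at least 2-fold higher, beside 6.08% of all genes. Lower by at least 2-fold was 1, beside 8.60%, Col27a1 at 0.423 (0.224 to 0.738). These counts are near the background and no result about the list. The median log2 ratio was 0.02, with 1 interval wholly above 1 and 2 wholly below. Col3a1, the type III chain, had 1347 and 398 UMIs, a ratio of 1.03 (0.915 to 1.15). Within the Col15a1 and Cftr clusters it was higher in CKO, with ratios of 2.43 (1.83 to 3.18) and 2.82 (1.65 to 4.68), and within the Adh5 cluster it was not, at 0.928 (0.749 to 1.15). The Col15a1 cluster had only 21 CKO nuclei, which largely parted from its control nuclei when genes past 2-fold were kept in the clustering. Globin UMIs were higher in those CKO nuclei too, with Hbb-bs at 0 and 62 and Hba-a2 at 0 and 55. Among 15 other collagen genes, Col14a1 was higher at 2.24 (1.45 to 3.42), and Col7a1, Col13a1 and Col22a1 were lower, with Col13a1 at 0.265 (0.169 to 0.399). Col1a1 stood higher within several clusters than in the sum over all nuclei, with ratios of 1.94 (1.58 to 2.36) in the Slc47a1 cluster, 1.61 (1.24 to 2.05) in the Col15a1 cluster, 1.83 (1.24 to 2.66) in the Cftr cluster and 2.33 (1.54 to 3.48) in the Dpp4 cluster, where Col1a2 had the same counts, 73 and 39 UMIs. The Slc47a1 and Col15a1 values compare nuclei that largely parted by library when genes past 2-fold were kept in the clustering. In the Mapk10 and Myh11 clusters, which led with markers of other classes, Col1a1 had 237 and 45 UMIs, a ratio of 0.770 (0.547 to 1.06), and 172 and 38 UMIs, a ratio of 0.844, with an interval that included 1. The Col1a1 ratio of the Adh5 cluster, with 140 control and 82 CKO nuclei, is not given here. Fibril-associated proteoglycans gave 0 of 9 members past 2-fold in either direction. Of 17 elastic fiber genes 1 was past 2-fold, Fbln2 at 0.260 (0.116 to 0.511), while Fbn1, the microfibril protein fibrillin 1, was at 176 and 315 CPM. Enzymes that mature collagen had a median log2 ratio of 0.56 over 15 members, with P4ha1, a prolyl hydroxylase subunit, at 54.2 and 186 CPM and the lysyl hydroxylase gene Plod2 at 88 and 6 UMIs. Colgalt1, a collagen galactosyltransferase gene, was the other member past 2-fold, at 43 and 25 UMIs. Of 15 matrix protease and inhibitor genes 2 were past 2-fold, Mmp16 and Adamts6, both lower in CKO. The counts of the proteoglycan, elastic fiber and protease lists are near the 6.08% and 8.60% of all genes and so no result about them.

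Markers of the meningeal layers were compared list by list. Of 6 pial markers with enough UMIs 3 were at least 2-fold lower in CKO, Lama1, Col18a1 and Postn, and the list's median log2 ratio was -0.91. It became -0.11 when clusters had equal weight in both libraries. After thinning to 250 UMIs, pial markers were detected in 46.0% of control and 27.2% of CKO nuclei (79.5% and 55.8% unthinned), against 0.379% and 0.0967% of glutamatergic neurons. The list is not particular to these nuclei: the thinned shares were 33.9% and 28.7% of astrocytes, 35.8% and 34.3% of ECs and 33.2% and 35.0% of vSMCs. Arachnoid barrier markers were detected in 38.2% and 55.8% of thinned nuclei (61.9% and 79.7% unthinned), against 0.426% and 0.645% of those neurons. Their median log2 ratio was 0.36 over 8 members, of which 0 were 2-fold higher and 1, the transcription factor gene Tfap2b, was lower at 120 and 6 UMIs. The arachnoid list had a median log2 ratio of -0.37 over 8 members, 2 of them at least 2-fold lower, Aldh1a1 and the organic anion carrier gene Slc22a6, and 0 higher. Its thinned shares were 66.3% and 62.3% (84.4% and 76.1% unthinned), against 0.0473% and 0.0322% of the neurons, 24.3% and 18.8% of astrocytes and 37.9% and 42.7% of vSMCs. Leptomeningeal markers had a median log2 ratio of -0.58 over 15 members, with Slc6a13 and Slc22a6 past 2-fold, both lower. Dural markers had a median log2 ratio of 0.52 over 7 members, with the enkephalin precursor gene Penk past 2-fold at 41 and 34 UMIs, 23.7 and 68.1 CPM. The shares of thinned nuclei with a dural marker, 62.2% and 76.6%, are hard to read, because 53.9% and 54.5% of the neurons held one as well. Among 9 perivascular fibroblast markers, Col15a1, Abca8a, Lamc3 and the ferritin receptor gene Scara5 were lower in CKO, and Adamtsl3 was higher at 1081 and 657 UMIs, a ratio of 2.11 (1.91 to 2.33). Of 15 fibroblast markers 1 was past 2-fold, the PDGF receptor gene Pdgfra, at 626 and 67 UMIs and a ratio of 0.372 (0.284 to 0.479).

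**Figure D3:**
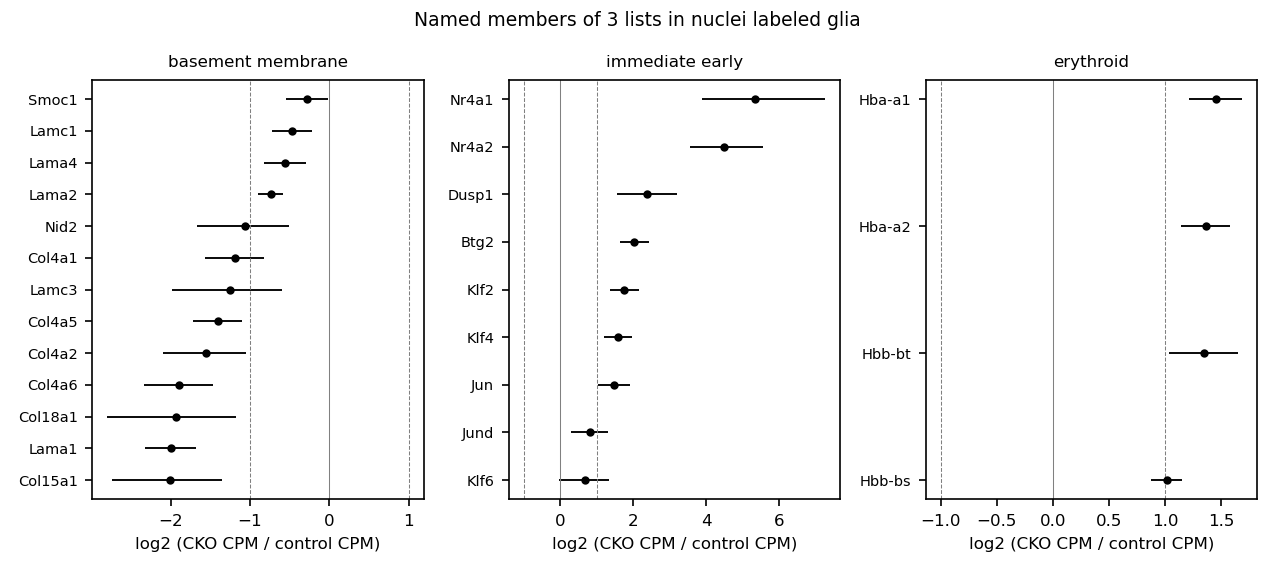
Log2 ratio of CKO to control level in nuclei labeled glia, for the named basement membrane, immediate early and erythroid genes with at least 50 UMIs, with 95% intervals that cover counting error only and dashed lines at 2-fold in each direction. The basement membrane genes shown lie below 0, with Lama1 at -1.99, and the immediate early genes above it, with Nr4a2 at 4.49.

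Of 30 leptomeningeal transporter genes 1 was at least 2-fold higher in CKO, Slc16a9, beside 6.08% of all genes, and 8 were lower, beside 8.60%: Slc6a12, Slc6a13, Slc7a11, Slc7a14, Slc16a12, Slc22a2, Slc22a6 and Abca8a, with a median log2 ratio of -0.42. The list sums were nonetheless close, at 18617 and 18562 CPM, with abundant members of ratios above 1 among them. Slc38a2, a neutral amino acid carrier, had 7941 and 2962 UMIs, a ratio of 1.29 (1.24 to 1.35). Slc7a11, the cystine and glutamate exchanger, had 1806 and 149 UMIs, a ratio of 0.286 (0.241 to 0.339). Its ratio was 0.335 (0.198 to 0.531) within the Col15a1 cluster and 1.05 (0.739 to 1.46) within the Cftr cluster. The first of these compares nuclei that largely parted by library when genes past 2-fold were kept in the clustering. Slc6a13, a GABA and taurine carrier, had 1570 and 188 UMIs, a ratio of 0.416 (0.355 to 0.484), and within the Cftr cluster 602 and 92 UMIs, a ratio of 0.993 (0.788 to 1.24). For these 2 carriers no difference between the libraries was detectable within the Cftr cluster, which does not show that its nuclei were alike. Of 28 transcription factor genes 3 were at least 2-fold lower, Ebf2, Tfap2b and Runx1t1, and 0 higher. Foxp1 had 6223 and 2365 UMIs, a ratio of 1.32 (1.26 to 1.38), and Tbx15, a mesenchymal T-box factor, 916 and 301, a ratio of 1.14 (0.998 to 1.30). In the retinoid list the retinal dehydrogenase gene Aldh1a1 was lower at 436 and 58 UMIs, a ratio of 0.462 (0.345 to 0.608), and the receptor gene Rxra lower at 54 and 7, while Crabp2, a retinoic acid binding protein, was at 103 and 168 CPM.

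Among TGF-beta pathway genes, the ligand genes Tgfb2 and Tgfb3 and the activator gene Thbs1 were higher in the CKO nuclei. Of 14 ligand, receptor and activator genes with enough UMIs, 3 were at least 2-fold higher, beside 6.08% of all genes, and 0 lower, with a list median log2 ratio of -0.08. Tgfb2 had 61 and 48 UMIs, 35.2 and 96.2 CPM, a ratio of 2.73 (1.83 to 4.05). Tgfb3 had 99 and 61 UMIs, a ratio of 2.14 (1.53 to 2.97), and Thbs1, whose product can activate latent TGF-beta, 85 and 69, a ratio of 2.82 (2.02 to 3.92). The third ligand gene, Tgfb1, had 20 and 0 UMIs, too few to be among the 14. The coreceptor gene Tgfbr3 had 1745 and 489 UMIs, a ratio of 0.973 (0.878 to 1.08), and Smad3 and Smad4, which carry the signal to the nucleus, had ratios of 0.706 (0.526 to 0.935) and 0.932 (0.698 to 1.23). Of 19 genes listed as TGF-beta targets, Ccn1 and Bhlhe40 were at least 2-fold higher, and Ldlrad4, an inhibitor of the pathway, and Postn were lower, counts near the 6.08% and 8.60% of all genes and so no result about the list. Of 16 bone morphogenetic protein (BMP) and Id genes 1 was past 2-fold, Id2, at 66.4 and 180.3 CPM. Bmp6 had 2969 and 541 UMIs, a ratio of 0.632 (0.576 to 0.693). In the Wnt list of 19 genes the receptor gene Fzd4 was higher, at 46 and 28 UMIs, and the transcription factor gene Lef1 lower, at 213 and 24.

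Of 26 growth factor and insulin-like growth factor (IGF) genes 4 were higher and 4 lower in CKO. Igfbp5 (chromosome 1, 72897091 to 72914043), which binds IGFs in the matrix, had 1010 and 828 UMIs, 583 and 1659 CPM, a ratio of 2.85 (2.59 to 3.12). Igfbp5 was higher in CKO within the Slc47a1 cluster as well, at 290 and 377 UMIs and a ratio of 2.63 (2.25 to 3.08). That value compares nuclei that largely parted by library when genes past 2-fold were kept in the clustering. Within the Mapk10 and Dpp4 clusters its ratios were 3.28 (2.28 to 4.68) and 3.34 (1.92 to 5.72). Igf2r, Gas6 and Mdk, the gene of the heparin-binding factor midkine, were the other 3 higher members. Vegfa, Pdgfra, Pdgfrb and Csf1, the gene of a macrophage growth factor, were the 4 lower ones, with Csf1 at 132 and 15 UMIs. Il34, whose product binds the same receptor as that of Csf1, was also lower, at 374 and 36 UMIs and a ratio of 0.334 (0.230 to 0.471).

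Inflammation and interferon lists were counted next. Of 13 genes of fibroblast inflammation 0 were at least 2-fold higher and 3 lower, Il34, the adhesion molecule gene Vcam1 at 265 and 25 UMIs, and the oncostatin M receptor gene Osmr at 67 and 9. Of 12 interferon response genes 0 were past 2-fold in either direction, with a median log2 ratio of -0.26, and the list summed to 750.3 and 699 CPM. With 6.08% of all genes at least 2-fold higher and 8.60% lower, counts of 0 in lists this short are near the background and are no result about them. Of 17 genes of myofibroblast activation 2 were past 2-fold, Postn and Cthrc1, both lower. Of 9 cell cycle genes 1 was past 2-fold, Atad2, lower at 71 and 10 UMIs. Adhesion and guidance genes had 8 of 40 members at least 2-fold lower and 0 higher: Robo1, Robo2, Sema5a, Nrp1, Epha3, Epha7, Ephb2 and Itga8. Alcam, a cell adhesion molecule of the immunoglobulin family, had 10124 and 2768 UMIs, a ratio of 0.949 (0.910 to 0.990), whereas the ephrin receptor genes Epha3 and Epha7 had ratios of 0.216 (0.130 to 0.340) and 0.182 (0.118 to 0.270). The guidance ligand gene Slit2 was at 888 and 1400 CPM, a ratio of 1.58 (1.44 to 1.73).

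Markers of other cell types were measured in the same nuclei, and their part in the differences was not tested. All 12 pericyte markers were detected in control and 11 in CKO, where Kcnj8 had 0 UMIs, and the list summed to 3361 and 1987 CPM. Its most abundant gene was Slc6a20a, which is also a leptomeningeal marker. Neuronal markers summed to 1703 and 1607 CPM, with Meg3 most abundant and Gad2 at 0 UMIs in CKO. Border macrophage markers summed to 747 and 473 CPM, with Dab2 most abundant and Ms4a7 at 0 UMIs in CKO, and F13a1 and Mrc1 were lower in CKO, at 136 and 7 UMIs and at 102 and 6. Choroid plexus markers, 10 of 10 detected in both libraries, summed to 1980 and 1609 CPM, with Ttr most abundant. The vSMC list was low, at 216 and 198 CPM, with Mylk most abundant and Cnn1, Actg2 and Kcnmb1 at 0 UMIs in CKO. Globin genes were higher in CKO: 6 of 6 erythroid markers were detected, the 4 globin genes with enough UMIs were each at least 2-fold higher, the erythroid list summed to 1204 and 2780.5 CPM, and Hbb-bs, a beta globin gene and the most abundant, had 1122 and 653 UMIs. The globin genes come in near-identical copies, so how their UMIs divide among copies is uncertain. In nuclei labeled ECs the erythroid list was lower in CKO, at 18657 and 9066 CPM. After thinning, 8.48% of control and 19.8% of CKO nuclei labeled glia held an erythroid UMI.

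The Slc47a1 cluster, which held many nuclei of both libraries, was compared on its own. When genes past 2-fold were kept in the clustering its nuclei parted by library: 210 of them fell in a cluster of 222 control and 2 CKO nuclei, and 158 in a cluster of 5 control and 158 CKO nuclei. Library and kind of nucleus cannot be told apart there. Among 1189 genes with at least 50 UMIs in it, 85 (7.15%) were at least 2-fold higher in CKO and 161 (13.5%) at least 2-fold lower. Some meningeal genes that the clustering could use had ratios near 1: Slc47a1 had 574 and 286 UMIs, a ratio of 1.01 (0.872 to 1.16), Bnc2 a ratio of 1.05 (0.984 to 1.13) and Foxp1 a ratio of 0.974 (0.910 to 1.04). Grouping nuclei on such genes makes near-equal levels likely, so these ratios do not show that the nuclei matched. Over all nuclei labeled glia the ratios were 1.78 (1.58 to 2.01) for Slc47a1 and 1.41 (1.35 to 1.48) for Bnc2. Other genes had UMIs almost only in 1 library. The protocadherin gene Pcdh9 had 0 UMIs in control and 89 in CKO, and the interval of its ratio began at 47.8. Csrp2 had 4 and 56 UMIs, a ratio of 28.3 (10.5 to 108). In the other direction Kcnb2 had 543 UMIs in control and 1 in CKO, a ratio of 0.00373 (9.42e-05 to 0.0208). Galnt13, a glycosyltransferase gene, had 308 and 0 UMIs, and the netrin receptor gene Unc5c 416 and 4. The splicing regulator gene Celf2 had 307 UMIs in the control nuclei of this cluster and 1 in its CKO nuclei, and in the Dpp4 cluster 371 and 1. Other such genes were not split alike in each cluster: Galnt13 had 64 and 5 UMIs in the Adh5 cluster, and Pcdh9 51 and 55 in the Myh11 cluster. Whether background removal made zeros such as these was not tested.

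The libraries also differed in sex-linked transcripts. Xist (chromosome X, 102503972 to 102537573), the RNA that silences an X chromosome in female cells, had 5142 UMIs in control and 1 in CKO, a ratio of 0.000675 (1.71e-05 to 0.00376). It was detected in 584 control nuclei (47.6%) and in 1 CKO nucleus. Transcripts of Y-linked genes were detected in 489 control nuclei (39.9%) and 128 CKO nuclei (30.5%), at 508 and 435 CPM. Of the control nuclei 104 held both kinds of UMI and 258 neither, so single nuclei could not all be sexed. The control library held Xist in many nuclei and the CKO library in 1, so sex makeup and genotype cannot be told apart. Against the 643 control nuclei without an Xist UMI, which had a median of 766 UMIs, 667 of 3972 genes were at least 2-fold higher in CKO and 360 at least 2-fold lower. Of the 30 genes named above as farthest from 1, 19 had a value in that comparison, and these 19 kept their direction and stayed past 2-fold. The 30 were picked for their ratios in counts that include these nuclei, so this is no separate check. The part of sex in the differences was not tested.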

How the data were processed

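Nuclei from 1 control and 1 CKO brain library were analyzed. The authors aligned reads with PIPseeker to GRCm39 (the submitters' processing notes list mm10 and Seurat), removed background RNA with CellBender and doublets with SOLO and by hand, and deposited whole-number UMI counts per gene and nucleus with their cluster labels. The counts were used as deposited, library by barcode suffix and group by label, and no further nuclei were removed. The nuclei labeled glia held 1732742 UMIs in control and 499193 in CKO, and the libraries shared 2 barcodes.

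UMIs were summed per library and scaled to CPM. Shares have exact Clopper-Pearson intervals, UMI sums exact Poisson intervals and ratios exact conditional binomial intervals, at 95%. The interval and ratio code was tested on simulated data. With 1 library per genotype no test was run. Genes with at least 50 UMIs were called by a ratio of at least 2-fold. Leiden clustering used 2000 variable genes, 20 principal components, 15 neighbors and resolution 0.5, with no correction between libraries, and was repeated at resolutions 0.25 and 1 and without genes past 2-fold. Clusters were found with scanpy 1.11.5 and leidenalg 0.10.2, intervals with scipy 1.17.1, sums with pandas 2.3.3 and numpy 2.4.6, and plots drawn with matplotlib 3.10.9, all under Python 3.11.15. Gene positions are from GENCODE on GRCm39, which matched 328 of 331 named genes.

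Genes to name were drawn up by rule, and the text names part of the list members among them: the label markers, Tgfbr1, Tgfbr2 and sex-linked genes; the 15 genes per direction whose ratio interval lay farthest from 1; the 20 genes highest over other brain nuclei with at least 200 UMIs; and of each gene list the 6 members with most UMIs and every member past 2-fold. Tgfb1, mt-Co3, and the genes given within single clusters (up to 12 per direction and cluster), were chosen after their values were seen. Members and lists were chosen with earlier results of these data known. Thinning to 250 UMIs, the minimum of 20 nuclei of both libraries per cluster, and the split of clusters into fibroblast and other classes were set after seeing the data. Alternatives changed scaling, nucleus and gene filters, control depth, clustering and cluster weights. Of the retina libraries only nuclei were counted, and their genes were not analysed here.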

Additional observations from a re-analysis of the deposited data

Results flagged for a closer look

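For 2 genes the difference between the libraries ran in opposite directions in nuclei labeled glia and in nuclei labeled ECs, with 1 library per genotype on each side. The CKO to control ratio of Slc16a9, a monocarboxylate and carnitine carrier, was 4.32 in nuclei labeled glia and 0.361 in nuclei labeled ECs. That of Csrp2, which encodes a LIM domain protein, was 4.18 and 0.326. In neither case was the difference between the labels tested. Within nuclei labeled glia most Slc16a9 UMIs of the CKO library, 175 of 240, and most Csrp2 UMIs, 56 of 88, lay in the Slc47a1 cluster.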

How the results depend on the processing

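The numbers of genes at least 2-fold higher and lower in CKO, 394 and 557 as reported, depended on the processing, and the cause was not tested unless named here. Weighting nuclei equally gave 959 and 1063. A minimum of 20 UMIs, which admitted 9816 genes, gave 1006 and 1093, and a minimum of 200, which left 2210, gave 62 and 144. Thinning the control to the CKO total left 3829 genes and gave 258 and 232. Nuclei with fewer than 3 UMIs of endothelial and mural markers (a list that holds Slc6a20a, also a leptomeningeal gene) left 2052 genes and gave 159 and 278. Control nuclei with no Xist UMI, an alternative chosen after seeing the data, gave 667 and 360. Nuclei with at least 2 label markers gave 247 higher, and those with at least 1000 UMIs 323 lower, while the other direction in each stayed within 1.5 times. These 2 settings kept part of the nuclei and so fewer genes, whose totals are not given here. Counts from different gene totals cannot be compared as shares. Centering on the median log2 ratio gave 340 and 609, and equal cluster weights, also chosen after seeing the data, 578 and 752.

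The share of nuclei labeled glia, 7.37% in control and 2.86% in CKO, was 4.82% and 1.42% among nuclei with at least 1000 UMIs, and 14.6% and 6.64% without neurons in the denominator, as that construction raises both. Counting nuclei with at least 2 label markers, whatever their label, gave 7.04% and 3.51%. The control share was the higher in each. The share of CKO nuclei in clusters with at least 3 raised pial markers was 0.955% with all genes and 5.01% without those past 2-fold, against 27.4% and 26.7% of control nuclei. The median log2 ratio of genes listed as lower in CKO ECs was -1.65 over 4 genes (-1.56 with Fndc1 at its floor) and 0.189 over the 3 left in nuclei with fewer than 3 endothelial and mural UMIs.

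The 30 genes named as farthest from 1 kept their direction wherever they had a nonzero value, in 15 to 27 genes per alternative over 7 alternatives, and stayed past 2-fold in each but 1 gene among nuclei with at least 1000 UMIs. These genes were picked for extreme ratios in the same counts, and genes without a value were left out. Their agreement was thus likely beforehand and is no measure of stability. No paired analysis was possible because each genotype had 1 library and the labels give no replicate numbers that link them. Depth limits genes with few UMIs: the CKO nuclei held 499193 UMIs, so that a floor of 3 counts bounds genes at 0.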
